A study of Mus musculus with 6 samples.

Results

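The genes described here are 10 genes of the NRF2 antioxidant response, Nfe2l2, Hmox1, Nqo1, Slc7a11, Gclc, Gclm, Gsr, Txnrd1, Srxn1 and G6pdx. They were picked by name as textbook members of the response. No measured value is in the rule, although earlier results of these data were known when they were chosen. They make up 10 of the 15441 genes with a value in these data. The study followed the transcriptome of the mouse cortex after photothrombosis, a stroke model in which a light-activated dye clots the vessels under the illuminated skull. Male C57/BL6J mice, 6 to 8 weeks old, received Rose Bengal and were illuminated over the sensorimotor cortex, and the whole cortex of the ipsilateral side was taken on day 1, 3, 7, 14 or 28 post-stroke. The control was 1 group of sham-operated mice taken on day 7 after the operation. RNA of 3 mice was pooled at each time, so that each group is 1 library and no value has an error or a test.

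NRF2, the protein product of Nfe2l2, is a transcription factor that is kept low by KEAP1, which presents it for degradation. Oxidants and electrophiles modify KEAP1, and NRF2 then enters the nucleus, pairs with a small MAF protein and binds the antioxidant response element in the promoters of enzymes that make glutathione, recycle thioredoxin, supply NADPH and break down heme and quinones. Its activity is set largely by the stability of the protein, which RNA levels do not show. In the brain the response is known mainly from astrocytes and from microglia and macrophages.

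Of the 10 genes, Hmox1 stood far apart from the rest. Its level was 12.3-fold over control on day 1 and 29.7-fold on day 3, and 1.65-fold on day 28. Nfe2l2 was 2.61-fold over control on day 3 and 2.19-fold on day 7. The other 8 genes stayed within a log2 ratio of 1 of control at every time point. Beneath a nearly level total, Txnrd1 differed between the libraries in which of its transcript starts carried the signal.

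The promoters of Txnrd1, Srxn1 and Nfe2l2 are shown for these reasons. The Txnrd1 signal moved between 2 starts, and Nfe2l2 was, with Hmox1, past the threshold. Srxn1 held the most motif matches, but only with the second form below, which was added after the sequences were seen. The windows run from 250 bases before to 50 bases after a RefSeq start (GRCm38.p6, the assembly that mm10 names) and are written in the direction of transcription. Letters in capitals match TGACNNNGC, the core of the antioxidant response element, or TGANTCAGC, a related form of the same length with fewer free letters that was added after the sequences were seen. Both strands were searched, so that a match on the other strand appears as its reverse complement. The Txnrd1 windows are chr10:82858956-82859255 and chr10:82860091-82860390 on the plus strand and contain the first and second of its listed starts. The Srxn1 window is chr2:152105274-152105573 on the plus strand, and the Nfe2l2 window is chr2:75704614-75704913 on the minus strand.
Txnrd1 start 1: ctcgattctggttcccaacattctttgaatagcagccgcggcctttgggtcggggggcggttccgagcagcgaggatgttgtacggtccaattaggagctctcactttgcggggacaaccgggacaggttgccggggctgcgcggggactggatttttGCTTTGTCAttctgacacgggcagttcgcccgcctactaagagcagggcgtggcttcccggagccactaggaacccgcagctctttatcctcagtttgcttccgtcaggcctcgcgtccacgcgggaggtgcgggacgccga
Txnrd1 start 2: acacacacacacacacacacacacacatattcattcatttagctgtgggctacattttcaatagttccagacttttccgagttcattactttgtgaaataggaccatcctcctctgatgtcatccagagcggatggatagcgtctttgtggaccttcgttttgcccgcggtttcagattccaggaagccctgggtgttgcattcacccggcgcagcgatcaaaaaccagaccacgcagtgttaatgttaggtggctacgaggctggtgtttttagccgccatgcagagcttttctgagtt
Srxn1: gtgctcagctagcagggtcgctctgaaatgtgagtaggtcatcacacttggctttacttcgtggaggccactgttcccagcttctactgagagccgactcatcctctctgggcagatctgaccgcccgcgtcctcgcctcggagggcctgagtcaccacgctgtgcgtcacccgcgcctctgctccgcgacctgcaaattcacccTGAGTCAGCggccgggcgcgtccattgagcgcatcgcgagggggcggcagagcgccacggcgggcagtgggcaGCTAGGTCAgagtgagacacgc
Nfe2l2: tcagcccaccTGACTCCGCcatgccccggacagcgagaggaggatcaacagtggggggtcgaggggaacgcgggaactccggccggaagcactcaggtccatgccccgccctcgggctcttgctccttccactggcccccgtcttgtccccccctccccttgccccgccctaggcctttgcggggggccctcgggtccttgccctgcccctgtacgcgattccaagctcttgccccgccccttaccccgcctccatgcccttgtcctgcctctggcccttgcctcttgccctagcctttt

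Promoter windows were matched for 7 of the 10 genes, 9 windows in all, and none was matched for Hmox1, Gclc and Gsr. TGACNNNGC was found in 5 of the 9 windows, each of a different gene, against 12.4% of 32851 promoters of the same length. In Txnrd1 the match GCTTTGTCA lay in the window of start 1, at -92 from the RefSeq start, and the window of start 2 held none. Srxn1 held GCTAGGTCA at 28 and, as the only one of the 7 genes, a match of TGANTCAGC, TGAGTCAGC at -45, a form found in 1.19% of the promoters. As this form was added after the sequences were seen, its low share among promoters lends the match no weight. With TGACNNNGC alone, Srxn1 held 1 match, like Txnrd1, Nfe2l2, Gclm and G6pdx. The match in Nfe2l2 was TGACTCCGC at -240. Gclm held GCACCGTCA at -134 (window chr3:122245307-122245606) and G6pdx held GCTCAGTCA at -57 (window chrX:74428831-74429130, minus strand). These are matches of letters and no binding was measured. Only 300 bases were searched per window, so that a window without a match does not show that the gene has no such element.

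Levels are in FPKM, counts of fragments scaled to the length of the transcript and the size of the library, which allows genes of different length to be compared. The deposited values belong to single transcript starts, ends and splicing events, and the level of a gene is the largest of its summed starts, its summed ends and any single event, a lower bound on the level of its locus. The depth of each library is unknown beyond a stated average of 33.6 M reads, and 79330 to 93931 events were listed per library. A gene is called not listed where no event carried its identifier, which does not show that it was not expressed. All 10 genes were listed in all 6 libraries, each as a locus of its own with no other gene, and each had at least 1.99 FPKM in control, so that none entered the comparison only through its post-stroke level. The log2 ratio of a day to control was taken after adding 0.1 to both FPKM, which slightly understates the ratio of low genes, and a gene past the threshold had a log2 ratio of at least 1 in size. In bulk cortex a larger number of cells of one type and more RNA per cell cannot be told apart.

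Nfe2l2 (ENSMUSG00000015839, chr2:75675513-75704641, minus strand) encodes NRF2 itself. Its FPKM was 5.34 in control, 6.15 on day 1, 13.9 on day 3, 11.7 on day 7, 9.12 on day 14 and 8.19 on day 28. The day 1 library was close to control, day 3 was the highest, and the level then declined without returning to control. The log2 ratio was 0.20, 1.37, 1.12, 0.76 and 0.61 on days 1, 3, 7, 14 and 28. On day 3 Nfe2l2 ranked 629 of 12052 genes by ratio and on day 28, 998 of 11751. Against the day 28 library, a reference added after the values were seen, the log2 ratio on day 3 was 0.76, below the threshold. The level of Nfe2l2 rests on start events alone. The start at the annotated 5′ end had 4.47 FPKM in control, and a start further downstream with 0.877 FPKM was listed in control only.

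Hmox1 (ENSMUSG00000005413, chr8:75093621-75100589, plus strand) encodes heme oxygenase-1, the inducible enzyme that splits heme into biliverdin, iron and carbon monoxide. Its FPKM was 2.20 in control, 27.0 on day 1, 65.2 on day 3, 19.7 on day 7, 8.60 on day 14 and 3.63 on day 28. Every post-stroke library was above control, with day 3 the highest and each later library lower than the one before it. The log2 ratio was 3.56, 4.83, 3.11, 1.92 and 0.70 at the 5 days. By ratio Hmox1 ranked 125 of 11790 genes on day 1, 47 of 12052 on day 3, 243 of 12069 on day 7, 389 of 12045 on day 14 and 802 of 11751 on day 28. By level it stood at rank 9789 of 13267 listed genes in control and at rank 654 of 13800 on day 3. It supplied 2.53% of the summed FPKM of the 10 genes in control, 19.9% on day 1, 38.1% on day 3, 16.7% on day 7, 7.90% on day 14 and 3.74% on day 28. The sum of the other 9 genes lay between 84.8 FPKM in control and 109 on day 1. All Hmox1 values rest on 1 event, the transcript end at chr8:75099886-75100589, the only one listed for the gene.

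**Figure D1:**
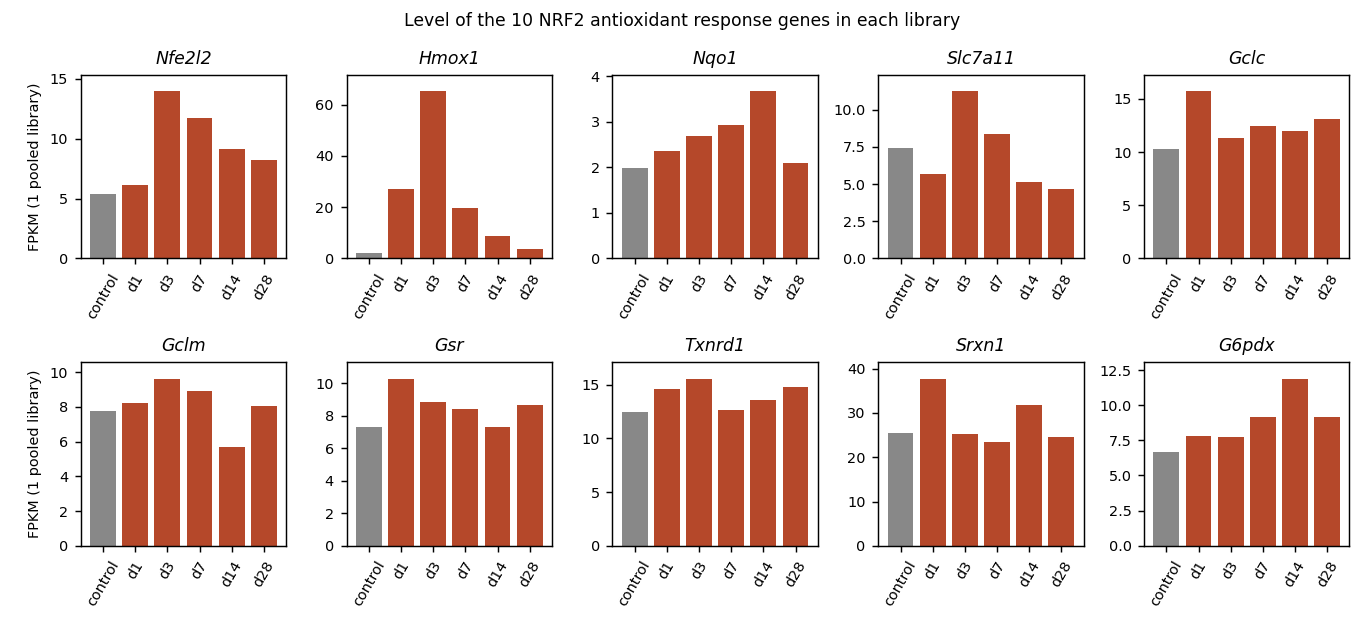
FPKM of each of the 10 genes (y axis, each panel from 0 on its own scale) in the control library (grey) and the 5 post-stroke libraries (red, d1 to d28 for days 1 to 28), 1 bar per pooled library, so no error bars. Hmox1 was highest on day 3 with 65.2 FPKM against 2.20 in control, Nfe2l2 was highest on day 3 with 13.9, and the other 8 genes varied by at most 2.39-fold between their highest and lowest library.

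Nqo1 (chr8:107388225-107403206, minus strand) encodes a quinone reductase that is often used as a readout of NRF2. Its FPKM was 1.99 in control, 2.36 on day 1, 2.69 on day 3, 2.93 on day 7, 3.67 on day 14 and 2.10 on day 28. The level was higher in each library up to day 14 and was near control on day 28, a later course than that of Hmox1. The log2 ratio reached 0.86 on day 14, below the threshold. It had the lowest level of the 10 genes in all 6 libraries.

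Slc7a11 (chr3:49892526-50443614, minus strand) encodes the cystine transporter that imports the precursor of glutathione. Its FPKM was 7.46 in control, 5.70 on day 1, 11.3 on day 3, 8.37 on day 7, 5.16 on day 14 and 4.70 on day 28. It was the only one of the 10 genes below control on day 1, it was above control on days 3 and 7, and it was below again on days 14 and 28. The log2 ratio was -0.38, 0.59, 0.16, -0.52 and -0.66 at the 5 days, with day 28 the lowest of any of the 10 genes at any day. Against the day 28 library in place of the sham control, the log2 ratio on day 3 was 1.24. The only start event listed for Slc7a11, at chr3:50443641-50443749 and upstream of the annotated gene, had 1.33 FPKM in control and was not listed in the other libraries.

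Gclc and Gclm encode the catalytic and the modifier subunit of glutamate-cysteine ligase, the rate-limiting enzyme of glutathione synthesis. Gclc (chr9:77754535-77794485, plus strand) had 10.3 FPKM in control, 15.7 on day 1, 11.3 on day 3, 12.4 on day 7, 11.96 on day 14 and 13.1 on day 28. It was above control in all 5 post-stroke libraries, with day 1 the highest at a log2 ratio of 0.61. Gclm (chr3:122245557-122270732, plus strand) had 7.74 FPKM in control, 8.22 on day 1, 9.63 on day 3, 8.94 on day 7, 5.70 on day 14 and 8.08 on day 28. It was highest on day 3, with a log2 ratio of 0.31, and was below control on day 14 only, at -0.44. The ratio of Gclc to Gclm was 1.33 in control, 1.91 on day 1, 1.17 on day 3, 1.39 on day 7, 2.10 on day 14 and 1.62 on day 28, each from 1 library and with no error. After a correction for transcript length, the day 14 log2 ratios of Gclc and Gclm were 0.13 and -0.27, in place of 0.21 and -0.44.

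Gsr (chr8:33652523-33698163, plus strand) encodes glutathione reductase, which returns oxidised glutathione to its reduced form. Its FPKM was 7.32 in control, 10.3 on day 1, 8.83 on day 3, 8.43 on day 7, 7.33 on day 14 and 8.68 on day 28. Day 1 was the highest, with a log2 ratio of 0.49, and day 14 was within 0.01 of control on the log2 scale. G6pdx (chrX:74409483-74429194, minus strand) encodes glucose-6-phosphate dehydrogenase, the entry enzyme of the pentose phosphate pathway and a source of NADPH. Its FPKM was 6.65 in control, 7.78 on day 1, 7.72 on day 3, 9.13 on day 7, 11.9 on day 14 and 9.17 on day 28. It was above control in all 5 post-stroke libraries and, like Nqo1, was highest on day 14, with a log2 ratio of 0.83.

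Srxn1 (chr2:152105516-152111376, plus strand) encodes sulfiredoxin, which repairs overoxidised peroxiredoxins. Its FPKM was 25.5 in control, 37.8 on day 1, 25.2 on day 3, 23.4 on day 7, 31.9 on day 14 and 24.6 on day 28. It had the highest level of the 10 genes in every library but day 3, when Hmox1 was higher. The days 1 and 14 libraries stood above control, with log2 ratios of 0.56 and 0.32, and the other 3 were within 0.12 of it. Most of the level came from 1 of its 3 listed starts, which had 24.3 FPKM in control and 35.8 on day 1.

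Txnrd1 (chr10:82833951-82897712, plus strand) encodes the cytosolic thioredoxin reductase, which keeps thioredoxin reduced. Its FPKM was 12.5 in control, 14.7 on day 1, 15.6 on day 3, 12.7 on day 7, 13.6 on day 14 and 14.8 on day 28. This was the narrowest range of the 10 genes, 1.25-fold between the highest and the lowest library. The log2 ratio was 0.31 on day 3 and between 0.02 and 0.24 at the other days.

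The level of Txnrd1 is the sum of 3 listed starts, and their shares differed widely between control and the post-stroke libraries. Start 1, with a first exon at chr10:82859179-82859300, had 10.8 FPKM in control, 2.99 on day 1, 3.54 on day 3, 4.28 on day 7, 4.74 on day 14 and 7.81 on day 28. Start 2 lies 1122 bases downstream, with a first exon at chr10:82860301-82860630, and had 1.23 FPKM in control, 11.6 on day 1, 11.95 on day 3, 8.26 on day 7, 8.76 on day 14 and 6.71 on day 28. Start 1 was thus highest in control and start 2 in the early post-stroke libraries, with day 28 in between. The share of start 2 was 9.86% in control, 79.2% on day 1, 76.7% on day 3, 65.2% on day 7, 64.4% on day 14 and 45.3% on day 28. The log2 ratio of start 2 was 3.13, 3.18, 2.65, 2.73 and 2.35 at the 5 days, and that of start 1 was -1.82, -1.58, -1.31, -1.17 and -0.46. Start 3 had at most 0.495 FPKM. In the GENCODE M21 annotation 4 transcripts, 3 of them coding, begin at start 1, and 2 transcripts, 1 of them coding, begin at start 2.

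**Figure D2:**
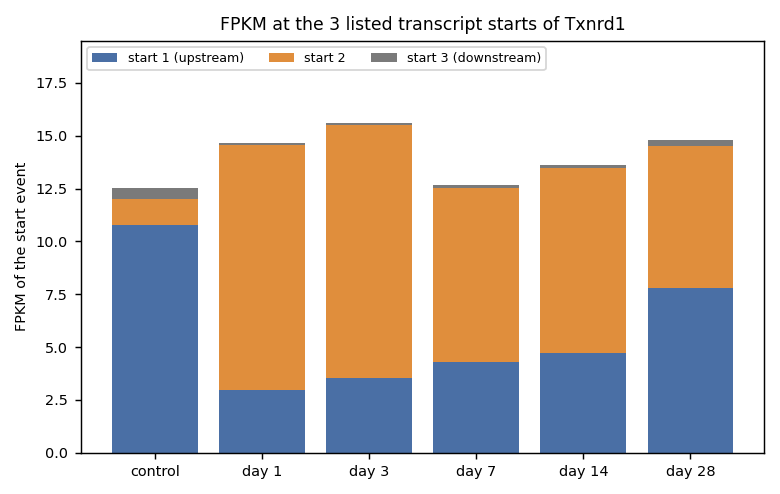
FPKM (y axis) at the 3 listed transcript starts of Txnrd1, stacked for each of the 6 libraries (x axis), with start 1 in blue, start 2 in orange and start 3 in grey, 1 pooled library per bar. The total varied between 12.5 and 15.6 FPKM, while start 1 held 86.2% of it in control and 20.4% on day 1.

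The shift of Txnrd1 was singled out after its values were seen, and the share of all genes is given for moves of at least 50 percentage points, not for moves of its size. Among genes with at least 2 starts and at least 5 FPKM of summed starts in both libraries, a start moved by that much of its gene's total in 5.53% of genes on day 1, 4.94% on day 3, 4.71% on day 7, 7.04% on day 14 and 4.40% on day 28. Txnrd1 was among them on days 1, 3, 7 and 14 and not on day 28. The first exons of the 2 starts are joined to the same downstream exons, so that the FPKM of a start divides shared reads between transcripts by estimation. The first exon of start 2 also contains the exon chr10:82860524-82860630, which a form of start 1 includes, so that reads within that exon are shared too. In the same model, the form of start 1 that skips the exon chr10:82860524-82860630 had 4.03 FPKM in control, 2.10 on day 7 and at most 0.000439 in the other 4 libraries. The form that includes this exon had 6.70 FPKM in control, 2.76 on day 1, 3.51 on day 3, 2.15 on day 7, 4.73 on day 14 and 7.78 on day 28.

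The number of the 10 genes past the threshold was 0 to 2 at each day. On day 1 Hmox1 was the only one that was higher, 1 of 10, where 5.11% of the 11790 genes compared were higher. On day 3 Hmox1 and Nfe2l2 were higher, 2 of 10 against 8.54% of 12052 genes, and on day 7 the same genes were higher, against 8.53% of 12069. On day 14 Hmox1 alone was higher, against 8.97% of 12045 genes, and on day 28 none was, against 3.68% of 11751. None of the 10 genes was lower by the threshold at any day, where 4.48%, 2.53%, 2.12%, 6.92% and 2.79% of all genes were lower on days 1, 3, 7, 14 and 28. On days 1 and 14 the share of the 10 genes that were higher thus rests on Hmox1 alone, and 1 of 10 on day 14 is close to the share of all genes. On days 3 and 7 the share was above that of all genes, but it rests on Hmox1 and Nfe2l2 alone.

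With a log2 ratio of 0.5 as the threshold, 3 of the 10 genes were higher on day 1 (Hmox1, Gclc and Srxn1), against 14.0% of all genes. On day 3 they were Hmox1, Nfe2l2 and Slc7a11, against 18.5%, and on day 7 Hmox1, Nfe2l2 and Nqo1, against 17.8%. On day 14 Hmox1, Nqo1, G6pdx and Nfe2l2 were higher, against 22.3%, and on day 28 Hmox1 and Nfe2l2, against 11.0%. Slc7a11 was the only gene lower by 0.5, on days 14 and 28, where 15.9% and 8.55% of all genes were lower, and none was lower on days 1, 3 and 7, against 13.6%, 8.82% and 7.84%. After a correction for transcript length, Srxn1 on day 1 (0.48), Nqo1 on days 7 and 14 (0.44 and 0.48) and Slc7a11 on day 14 (-0.20) did not pass 0.5.

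Most of the 10 genes lay slightly above control. The number above control was 9 on days 1, 3 and 7 and 8 on days 14 and 28, where 51.5% to 58.2% of all genes listed in both libraries were above it. These counts include Txnrd1 on day 7 and Gsr on day 14, at log2 ratios of 0.02 and 0.002. After scaling to the median ratio they were at -0.01 and -0.10. The median log2 ratio of the 10 genes was 0.23, 0.31, 0.24, 0.27 and 0.24 at the 5 days, and the median over all genes was 0.01, 0.03, 0.03, 0.10 and 0.03. Without Hmox1 and Nfe2l2 the median of the other 8 was 0.23, 0.29, 0.20, 0.17 and 0.16. The 5 comparisons share the 1 control library. Against the day 28 library, the median of the 10 genes was 0.20, 0.16, 0.07 and 0.14 on days 1, 3, 7 and 14. On day 7 Gclc, Srxn1, Txnrd1, Gsr and G6pdx were then below the reference, and Hmox1, Nqo1, Gclm, Slc7a11 and Nfe2l2 were above it. The highest post-stroke library was day 1 for Gclc, Gsr and Srxn1, day 3 for Nfe2l2, Hmox1, Slc7a11, Gclm and Txnrd1, and day 14 for Nqo1 and G6pdx.

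**Figure D3:**
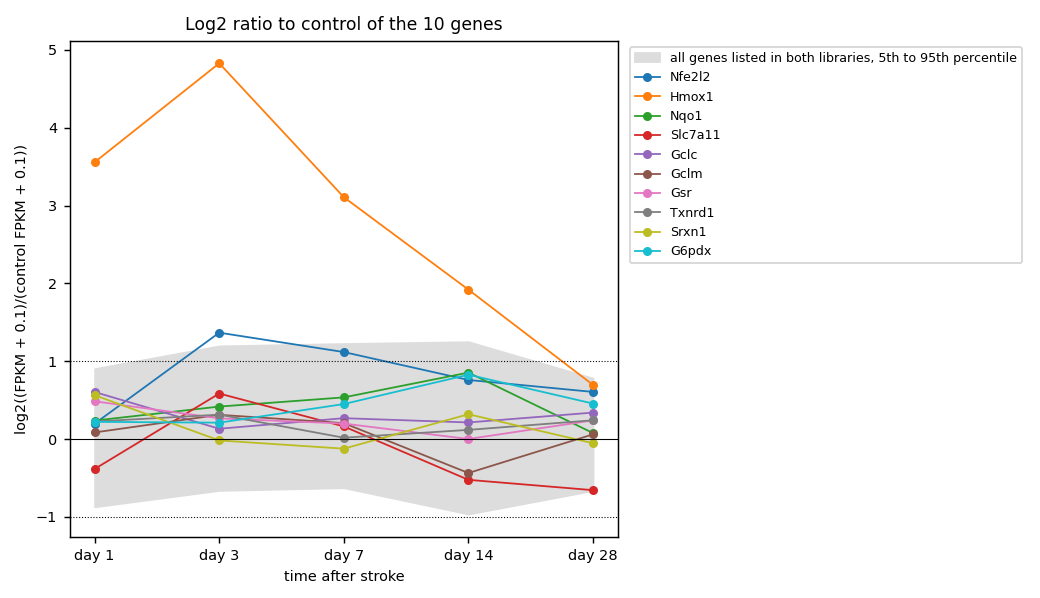
Log2 ratio to control (y axis, 0.1 added to each FPKM) of the 10 genes at the 5 post-stroke days (x axis), 1 line per gene and 1 pooled library per point; the grey band spans the 5th to the 95th percentile of all genes listed in both libraries and dotted lines mark the threshold of 1. Hmox1 lay above the band up to day 14, with 4.83 on day 3, and Nfe2l2 lay above it on day 3 with 1.37, while the other 8 genes stayed between -0.66 and 0.86.

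The genes whose course was most like that of Hmox1 and Nfe2l2 were found by the mean absolute difference of their log2 ratios over the 5 days, among 11564 genes. For Hmox1 they were Aspg, Hk3, Vim, Serpina3n and Rab32, with mean differences of 0.75, 0.81, 0.82, 0.85 and 0.85, so that none followed it closely. Vim, the intermediate filament of reactive astrocytes and mesenchymal cells, had 15.5 FPKM in control and 167 on day 3, with a log2 ratio of 3.42 against 4.83 for Hmox1. For Nfe2l2 they were Polh, Colec12, Plcg2, Fam114a1 and Pald1, with mean differences between 0.11 and 0.15. Such close matches are found more easily for a gene with small ratios.

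Markers of other cell types moved over the same time points. The summed FPKM of 5 markers of monocyte-derived cells was 7.22 in control, 13.2 on day 1, 153 on day 3, 363 on day 7, 203 on day 14 and 28.5 on day 28, most of it Lyz2. Ccr2 and Arg1 were not listed in control and on days 14 and 28, and Ly6c2 was not listed in control and on day 1. The sum of 8 markers of microglia and macrophages, of which 5 or 6 were listed per library and Itgam in none, was 52.0 in control, 41.4 on day 1, 111 on day 3, 121 on day 7, 94.0 on day 14 and 49.98 on day 28. The sum on day 1 was below control through P2ry12, at 18.0 FPKM in control and 7.01 on day 1, and Csf1r, at 23.9 and 21.6, while Aif1, Cd68 and Adgre1 were above control, and the median log2 ratio of the 5 markers was 0.16. Hmox1 was 12.3-fold over control on that day. It was lower on day 7 than on day 3, while the monocyte-derived sum was highest on day 7 through Lyz2, at 137 and 357 FPKM on days 3 and 7. Ms4a7 was also higher on day 7, at 1.44 and 3.96 FPKM. The other markers of that list were lower on day 7, Arg1 at 12.5 and 1.11, Ly6c2 at 1.89 and 0.911 and Ccr2 at 0.140 and 0.0564. Of 5 neutrophil markers, 1 was listed in control, 4 on day 1, 1 each on days 3 and 7, 3 on day 14 and none on day 28, with sums of 0.0729, 18.0, 1.59, 0.682 and 9.29 FPKM before day 28, and Ly6g was in none.

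The sum of 6 astrocyte markers, all listed, was 540 in control, 707 on day 1, 1260 on day 3, 916 on day 7, 736 on day 14 and 564 on day 28. It was highest on day 3, the day of the highest Hmox1 and Nfe2l2 levels, with Gfap supplying 698 FPKM of the sum. Gfap, at 85.8 FPKM in control and 330 on day 1, was the only astrocyte marker past the threshold, and the median log2 ratio of the 6 was -0.13, 0.34, 0.13, -0.13 and -0.01 at the 5 days. The 4 fibroblast markers summed to 23.9 in control and to 70.3, 83.2 and 80.3 on days 3, 7 and 14. The neuron sum was 1462 in control and lowest on day 14, with 979, and 5 of its 6 markers, Tubb3 being the exception, were listed in every library. The 4 endothelial markers, of which 2 to 4 were listed, summed to between 5.46 on day 14 and 14.0 on day 3, and the 4 oligodendrocyte markers to between 1418 on day 28 and 2018 on day 1. The endothelial sum was low on day 14 because Flt1, with 2.84 FPKM in control, was not listed. Pecam1 and Kdr, which were listed, were above control on that day, with log2 ratios of 0.26 and 0.55. The part of these cell types in the levels of Hmox1 and Nfe2l2 was not tested.

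**Figure D4:**
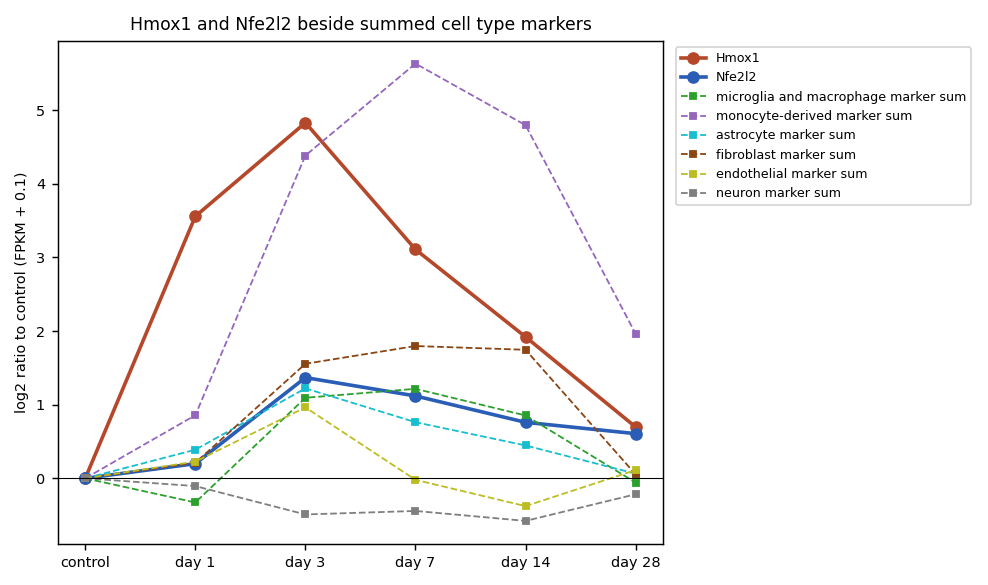
Log2 ratio to control (y axis, 0.1 added to each FPKM) of Hmox1 and Nfe2l2 (solid lines) and of the summed FPKM of 6 cell type marker lists (dashed lines) in control and at the 5 post-stroke days (x axis), 1 pooled library per point. The neutrophil list, with 1 marker listed in control and a sum at 6.71 on day 1, is not drawn. Hmox1 was at 3.56 on day 1, when the monocyte-derived sum was at 0.86 and the microglia and macrophage sum at -0.33. The microglia and macrophage sum was low through P2ry12 and Csf1r, while the median of its 5 markers was 0.16. The monocyte-derived sum was highest on day 7 with 5.63, most of it Lyz2. The endothelial sum, at -0.38 on day 14, then lacked Flt1, which was listed in control.

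Markers of neighbouring tissue and of blood also differed between libraries. Of 4 hypothalamic markers, none was listed in control, and their sum was 54.3 on day 1, 10.01 on day 3, 33.3 on day 7, 20.4 on day 14 and 4.49 on day 28. The sum of 4 choroid plexus markers was lowest on day 3, with 183 FPKM, and highest on day 28, with 564, and the erythroid markers Hbb-bs and Alas2 summed to 62.4 FPKM on day 7 and 212 on day 3. Day 3 thus held the highest erythroid sum and the highest Hmox1 level, and on day 1 the erythroid sum, 98.4, was below that of control, 117, while Hmox1 was 12.3-fold over control. The part of these tissues in the levels of the 10 genes was not tested.

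Beyond the 10 genes, 49 further genes of the NRF2 pathway and of antioxidant enzymes were read in 7 lists. A value was found for 44 of them, while Gss, Gstp1, Tkt, Ugdh and Sod2 were listed in no library. Their absence from the list does not show that they were not expressed. On day 1, 3 of 43 genes compared were higher and 1 lower, where 5.11% of all genes were higher and 4.48% lower. The numbers higher were 2 of 42 on day 3, 4 of 42 on day 7, 4 of 42 on day 14 and 0 of 42 on day 28, against 8.54%, 8.53%, 8.97% and 3.68% of all genes. None of the 42 was lower on days 3, 7 and 14, against 2.53%, 2.12% and 6.92%, and 2 were lower on day 28, against 2.79%. Their median log2 ratio was 0.24, 0.21, 0.21, 0.39 and 0.02 at the 5 days, close to that of the 10 genes up to day 7. The median over all genes on day 14 was 0.10. The ratios of the 7 lists were not corrected for transcript length. For the 10 genes that correction took the day 14 median from 0.27 to 0.14.

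Among the 9 regulators are the genes of the small MAF proteins, the partners of NRF2 on DNA, Mafk, Maff and Mafg, and the first and second of them were past the threshold on day 1. Mafk had 2.47 FPKM in control, 8.91 on day 1, 3.65 on day 3, 3.77 on day 7, 3.32 on day 14 and 3.16 on day 28, a log2 ratio of 1.81 on day 1. Maff was not listed in control and had 6.84 FPKM on day 1, then 0.867, 0.664, 0.418 and 0.419. Both were thus highest on day 1, when Nfe2l2 was near control. Mafg, with the highest level of the 3, had 27.6 FPKM in control and 27.4 on day 1, a log2 ratio of -0.01, and at most 33.0 FPKM, on day 7. Keap1, the repressor of NRF2, stayed between 18.6 and 20.8 FPKM in all 6 libraries. Bach1, a repressor that competes for the same element and is released by heme, had 2.23 FPKM in control and 3.78 on day 3, its highest level, with a log2 ratio of 0.74. Osgin1 was listed only on days 1 and 14, with 0.510 and 0.611 FPKM.

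Of the glutathione list, 9 of 11 genes had a value, and Mgst1 and Gpx3 passed the threshold. Mgst1, a microsomal glutathione transferase, had 4.25 FPKM in control, 7.22 on day 1, 11.1 on day 3, 10.02 on day 7, 12.4 on day 14 and 6.56 on day 28. Gpx3, a secreted glutathione peroxidase, had 3.61 FPKM in control, 7.19 on day 1, 7.00 on day 3, 12.1 on day 7, 16.5 on day 14 and 5.23 on day 28. Both were highest on day 14, the day of the highest Nqo1 and G6pdx levels, with log2 ratios of 1.52 and 2.16. None of this list was lower by the threshold at any day.

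In the metabolism of heme and iron, the biliverdin that heme oxygenase-1 makes is reduced mainly by the product of Blvra, and ferritin stores iron. Blvra had 9.28 FPKM in control and 13.1 on day 14, its highest level, a log2 ratio of 0.49 that did not pass the threshold. Blvrb, which encodes a second biliverdin reductase, had 6.06 FPKM in control, 7.30 on day 1, 9.45 on day 3, 10.9 on day 7, 12.4 on day 14 and 6.11 on day 28. It just passed the threshold on day 14, with a log2 ratio of 1.02 that was not corrected for transcript length. Ftl1, the ferritin light chain, had 183 FPKM in control, 262 on day 1, 490 on day 3, 543 on day 7, 440 on day 14 and 212 on day 28. Its log2 ratio was 1.42, 1.57 and 1.26 on days 3, 7 and 14, with the highest library later than that of Hmox1. The ferritin heavy chain gene Fth1 stayed within a log2 ratio of 0.60. Slc40a1, which encodes the iron exporter ferroportin, had 2.35 FPKM in control and 0.792 on day 1, a log2 ratio of -1.46, and 3.87 on day 3.

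In the thioredoxin list, Txnip, an inhibitor of thioredoxin, had 5.68 FPKM in control, 14.5 on day 1, 11.1 on day 3, 11.8 on day 7, 7.00 on day 14 and 8.51 on day 28, and passed the threshold on days 1 and 7. Prdx6, a peroxiredoxin, had 89.9 FPKM in control, 146 on day 7 and 37.4 on day 28, and Pgd, the NADPH-forming enzyme that follows G6pdx in the pentose phosphate pathway, had 8.12 in control, 14.5 on day 1 and 2.60 on day 28. These were the only genes of the 7 lists that were lower by the threshold on day 28, with log2 ratios of -1.26 and -1.61, while G6pdx was at 0.46. The 4 genes with a value in the list of other antioxidant enzymes, Sod1, Sod3, Cat and Msra, did not pass the threshold at any day.

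**Figure D5:**
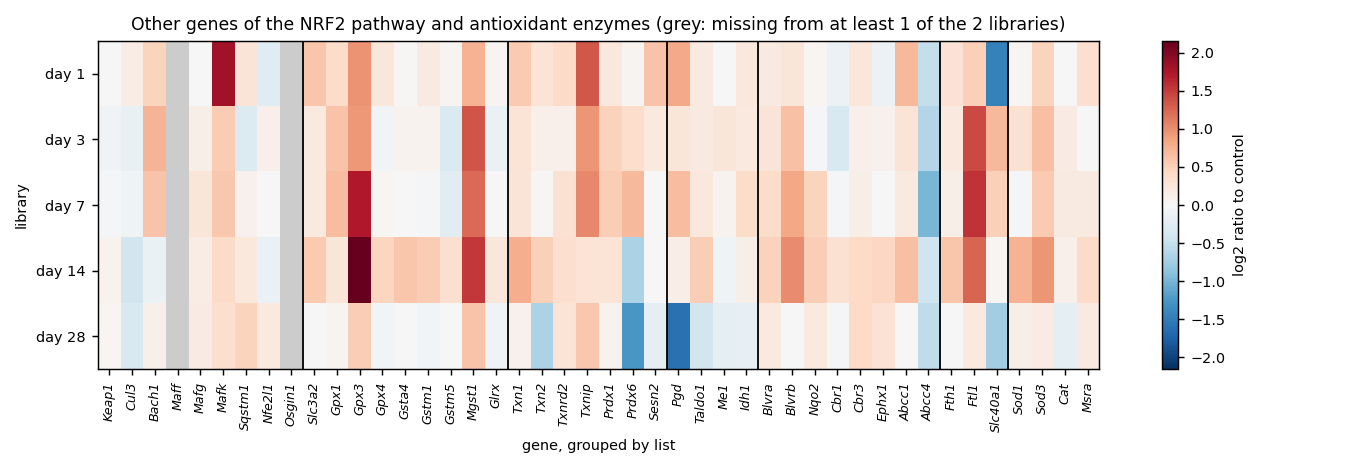
Log2 ratio to control (colour, red higher and blue lower, 0.1 added to each FPKM) of the 44 further NRF2 pathway and antioxidant genes with a value (x axis, lists divided by vertical lines) in the 5 post-stroke libraries (y axis), with grey for a gene missing from at least 1 of the 2 libraries. Mafk was at 1.81 on day 1, Gpx3 at 2.16 and Mgst1 at 1.52 on day 14, and Pgd at -1.61 and Prdx6 at -1.26 on day 28.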

How the data were processed

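Poly(A)-selected, strand-specific RNA-seq libraries of the ipsilateral cortex, read as pairs of 150 bases, were made from pools of 3 mice. The submitters' processing notes name Trimmomatic 0.30, HISAT2 2.0.1, HTSeq 0.6.1 and mm10, while the program that gave the values per event is not given in the sources used here. The authors deposited FPKM, 1 value for each transcript start, end or splicing event, with events at 0 left out. Repeated events were dropped. The value of a gene, taken by Ensembl identifier, was the largest of its summed starts, its summed ends and any single event. Of 15441 identifiers, 15411 matched GENCODE M21. Genes with at least 1 FPKM in 1 of the 2 libraries were compared with control, with a pseudocount of 0.1 and a threshold of 1 on the log2 scale. A gene not listed in a library got no ratio, and in counts was taken as 0, although it may have been expressed.

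With 1 library per group no test was run, and no interval or detection limit is given because the depth of each library is unknown. The 10 genes and all lists were chosen with earlier results of these data known. Genes named are the 10, those of the lists past the threshold at any day or listed in no library, and the 5 genes nearest to Hmox1 and to Nfe2l2. Keap1, Bach1, Mafg, Blvra, Osgin1, Fth1, G6pdx beside Pgd, the list of other antioxidant enzymes and the marker genes were named for their role. The calculation of gene values, fold changes and the length correction was checked on simulated data with less spread than between these libraries. That check does not show how reliable a ratio between single libraries is. Alternatives were tried for the threshold, the pseudocount, the scaling, the filter on low values, a correction for transcript length, the kind of event and the reference library. Promoter sequences are from RefSeq (GRCm38.p6). Python 3.11.15, numpy 2.4.6, pandas 2.3.3 and matplotlib 3.10.9 were used.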

Additional observations from a re-analysis of the deposited data

How the results depend on the processing

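The ratios to control past the threshold were those of Hmox1 on days 1 to 14 and of Nfe2l2 on days 3 and 7. None of them changed sign under any alternative that gave a value. Smaller ratios did change sign. With end events alone, Txnrd1 went from 0.31 to -0.24 on day 3, 0.12 to -0.51 on day 14 and 0.24 to -0.18 on day 28. Gclc on day 3 went from 0.13 to -0.01 with start events alone, and Gsr on day 14 from 0.002 to -0.21 after the length correction. Pseudocounts of 1 and 0.01, scaling to the median ratio or the upper quartile, a correction for transcript length, events inside the annotated span, the larger of the start and end sum, no filter, and only genes listed in both libraries left every count of genes past the threshold within 1.5 times. The length correction took the day 14 log2 ratio of Slc7a11 from -0.52 to -0.20 and that of Nqo1 from 0.86 to 0.48. It took the median of the 10 genes on day 14 from 0.27 to 0.14. With start events alone, the number of the 10 genes higher was 0, 1, 1 and 0 at days 1, 3, 7 and 14, because no start is listed for Hmox1, and 1 gene was lower at each of the 5 days, because the only start of Slc7a11 is listed in control alone. With end events alone, 1 gene was higher at day 3 and 1 at day 7, because no end is listed for Nfe2l2, and the highest day of Txnrd1 became day 1, from an end event of at most 0.230 FPKM. A threshold of 0.5 gave 3 higher at day 1, 4 higher and 1 lower at day 14, and 2 higher and 1 lower at day 28. A threshold of 2 gave 1 higher at day 3, 1 at day 7 and 0 at day 14. Against the day 28 library, an alternative chosen after seeing the data, 1 gene was higher at day 7, and the log2 ratio of Nfe2l2 was -0.41 at day 1 and 0.76 at day 3, against 0.20 and 1.37 with the sham control. Slc7a11, at 1.24 on day 3, then passed the threshold in place of Nfe2l2, while that of Hmox1 was 2.86, 4.13, 2.41 and 1.22 at days 1, 3, 7 and 14. No paired analysis was possible because each group is 1 library.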
